A study of Mus musculus and Rattus norvegicus with 30 samples.

Results

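The collagen genes were taken as every protein-coding gene whose symbol reads Col, a number, a and a number, and were followed through 12 libraries of rat heart muscle cells and 18 libraries of mouse left ventricle. The rule found 43 collagen genes among 32545 genes in the rat table and 44 among 54307 in the mouse tables. By type, 11 rat genes encode fibrillar collagens (types I, II, III, V, XI, XXIV and XXVII), 7 encode basement membrane collagens (types IV, XV and XVIII) and 25 encode other types, and in mouse these classes held 11, 8 and 25 genes. Of these, 38 rat and 32 mouse genes had enough counts to be tested. Rat Col6a3 carries the biotype processed transcript and so was not a member, rat Col4a3 and Col21a1 were not analysed here, and rat Col23a1 stands under 2 gene identifiers, between which reads could be split.

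Collagens are built from 3 chains that wind into a triple helix inside the endoplasmic reticulum, after prolyl and lysyl hydroxylases have modified them and with the chaperone HSP47 bound. Fibrillar collagens are secreted with propeptides, trimmed by proteases of the BMP1 and ADAMTS families, assembled into fibrils and crosslinked by lysyl oxidases, and in the heart types I and III form most of the fibrous scaffold around muscle cells. Type IV collagen makes the sheet-like network of the basement membrane that surrounds each cardiomyocyte and lines the vessels, whereas types VI, VIII, XII and XIV connect cells, sheets and fibrils. Cardiac fibroblasts are the main source of fibrillar collagen in the heart, and pressure overload is a textbook cause of collagen deposition there.

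Both preparations were treated with compounds that activate estrogen-related receptors (ERRs), nuclear receptors that drive genes of mitochondrial energy metabolism. Neonatal rat ventricular myocytes (NRVM), isolated from pups aged 3 days and grown with bromodeoxyuridine after a plating step that lets fibroblasts attach, were transfected with siRNA against both ERR alpha and ERR gamma (knockdown) or with scramble siRNA, typically at 25 nM, and were exposed for 24 hours to 915 at 10 µM or to its vehicle DMSO. Each of these 4 groups has 3 libraries. Wild-type mice had transverse aortic constriction (TAC), which overloads the left ventricle with pressure, or sham surgery, and received 332 by intraperitoneal injection or vehicle for 6 weeks. There were 3 sham vehicle, 5 sham 332, 5 TAC vehicle and 5 TAC 332 libraries, and the labels give neither the age of the mice nor whether rat libraries of a group came from separate isolations, so p-values for the rat cells measure the spread between these libraries, which may be technical.

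Totals ran from 12013379 to 18315341 counts in the rat and from 11375894 to 16599899 in the mouse libraries. Values are given as CPM, the usual unit of counts relative to the library total, after scaling by TMM factors, and changes as log2 fold changes from edgeR's quasi-likelihood test, called where the p adjusted over all genes was under 0.05. Esrra stood at 169 to 229 CPM in scramble and 12.7 to 21.9 CPM in knockdown libraries, and Esrrg at 130 to 302 and 16.1 to 25.1 CPM. The file names place replicates 1 to 3 of each mouse group in one sequencing set and replicates 4 and 5 in another, which holds no sham vehicle heart, and the mouse fit carries a term for the set. Within the first set the file names give lane 3 for the sham 332 hearts and lane 4 for all others. The term does not separate these lanes, so lane and group cannot be told apart there in comparisons with sham 332. Adipoq, an adipocyte gene, lay between 5.08 and 9.39 CPM in every mouse library of the second set and at 0.0896 CPM or below in the first. Groups are described below as overlapping or apart for named genes. The share of all genes without overlap was not computed, so these statements describe the values alone. In cultured cells and tissue alike, fewer cells of a type and less RNA per cell cannot be told apart.

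The promoters of 4 members that the results below turn on are printed here from RefSeq (mouse GRCm38.p6, 250 bases before to 50 after the annotated start, 5′ to 3′ on the gene's strand), because Col4a1 and Col4a2 changed side by side, Col3a1 was among the fibrillar genes that rose most after TAC and Col5a3 was the member called with 332. Capitals mark matches on either strand to the TATA box (TATAAA), the CCAAT box (CCAAT) and the GC box (GGGCGG), which do not overlap each other here.
Col4a1, chr8:11312777-11313076, minus strand: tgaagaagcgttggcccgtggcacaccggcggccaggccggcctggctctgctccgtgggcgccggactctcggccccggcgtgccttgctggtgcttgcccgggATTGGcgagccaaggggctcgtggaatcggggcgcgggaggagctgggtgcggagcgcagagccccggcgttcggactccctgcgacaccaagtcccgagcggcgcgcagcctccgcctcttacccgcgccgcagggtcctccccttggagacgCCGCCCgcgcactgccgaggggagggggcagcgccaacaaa
Col4a2, chr8:11312555-11312854, plus strand: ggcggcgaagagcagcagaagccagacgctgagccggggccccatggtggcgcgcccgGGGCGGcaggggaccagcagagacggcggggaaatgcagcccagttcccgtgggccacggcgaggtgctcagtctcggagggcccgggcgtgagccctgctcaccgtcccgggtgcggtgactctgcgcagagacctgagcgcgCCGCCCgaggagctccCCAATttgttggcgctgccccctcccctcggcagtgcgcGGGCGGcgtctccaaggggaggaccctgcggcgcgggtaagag
Col3a1, chr1:45311288-45311587, plus strand: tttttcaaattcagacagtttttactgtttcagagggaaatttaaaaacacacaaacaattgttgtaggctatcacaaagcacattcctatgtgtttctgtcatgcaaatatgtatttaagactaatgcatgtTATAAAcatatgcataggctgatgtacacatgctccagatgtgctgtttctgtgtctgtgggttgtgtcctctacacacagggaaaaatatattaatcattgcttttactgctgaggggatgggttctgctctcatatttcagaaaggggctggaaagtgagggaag
Col5a3, chr9:20815018-20815317, minus strand: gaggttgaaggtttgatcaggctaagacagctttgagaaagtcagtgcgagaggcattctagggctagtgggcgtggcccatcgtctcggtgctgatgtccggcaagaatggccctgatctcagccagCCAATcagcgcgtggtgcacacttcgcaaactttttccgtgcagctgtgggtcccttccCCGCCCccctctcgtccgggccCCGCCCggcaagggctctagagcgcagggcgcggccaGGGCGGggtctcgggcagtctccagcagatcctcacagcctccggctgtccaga
The starts of Col4a1 and Col4a2 lie 21 bases apart on opposite strands, with the annotated 5′ ends overlapping. Their windows share 78 bases, the last 78 of each as printed. Col4a5 and Col4a6 are also divergent, with starts 1343 bases apart. The Col3a1 window holds a TATAAA match that begins 117 bases before the start and none of the other motifs, while the Col5a3 window holds 1 CCAAT and 3 GC box matches.

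Windows were found for 35 of the 44 mouse collagen genes (38 windows in all). The extended half-site TCAAGGTCA, which ERR proteins are known to bind, occurred on either strand in 0 of these 38 windows and in 0.423% of all 32851 windows in the table. TATAAA occurred in 13.2% of collagen windows (Col3a1, Col10a1, Col11a2, Col13a1 and Col17a1) and 13.6% of all, CCAAT in 34.2% and 37.4%, and GGGCGG in 60.5% and 35.7%. A match is a description of the letters in these windows.

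In the rat cells Col1a1, which encodes the alpha 1 chain of type I collagen, was the member of highest level per transcript length in all 4 groups. In scramble vehicle cells it stood at 1502 ± 114 CPM per kb (SD, n = 3), followed by Col3a1 of type III at 647 ± 41.6, Col4a1 at 351 ± 12.1, Col4a2 at 290.0 ± 12.4 and Col1a2 at 225 ± 153. Each of the first 3 was set apart from the next by more than their SDs, whereas the wide spread of Col1a2 took in Col4a2 above it and the genes below it. In sham vehicle hearts the order was different: the type IV chains Col4a1, at 29.8 ± 2.61 CPM per kb (SD, n = 3), and Col4a2, at 27.5 ± 2.76, led and did not differ beyond their spread, ahead of Col3a1 at 13.7 ± 1.01 and Col6a1 at 11.8 ± 0.254. Col1a2 at 11.04 ± 1.22 CPM per kb and Col6a2 at 9.53 ± 0.772 came next and lay within or close to each other's spread. TAC vehicle hearts kept this head of the order, with Col4a1 at 95.3 ± 20.5 CPM per kb (SD, n = 5), Col4a2 at 83.5 ± 23.1 and Col3a1 at 64.4 ± 22.5, now with overlapping spreads.

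As a share of all counts, the collagen genes made up 2.06% ± 0.0747 (SD, n = 3) with scramble siRNA and vehicle, and 1.22% ± 0.0587 with scramble siRNA and 915. In knockdown cells the share was 2.14% ± 0.124 with vehicle and 1.65% ± 0.183 with 915. The vehicle libraries (1.995% to 2.29%) lay above all 915 libraries (1.18% to 1.86%) within each siRNA group. Fibrillar genes carried most of it, 1.40% ± 0.0513 in scramble vehicle cells against 0.428% ± 0.0178 for basement membrane genes. In mouse hearts the share was 0.0793% ± 0.00239 (n = 3) in sham vehicle, 0.101% ± 0.0196 (n = 5) in sham 332, 0.280% ± 0.0667 in TAC vehicle and 0.230% ± 0.0883 in TAC 332. Every TAC heart, at 0.145% or more, lay above every sham heart, at 0.115% or less, while TAC vehicle and TAC 332 overlapped widely. The balance of classes was also different from the rat cells: basement membrane genes held 0.0440% ± 0.00266 and fibrillar genes 0.0210% ± 0.000962 of counts in sham vehicle hearts, and the former stayed the larger class in every mouse library.

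**Figure D1:**
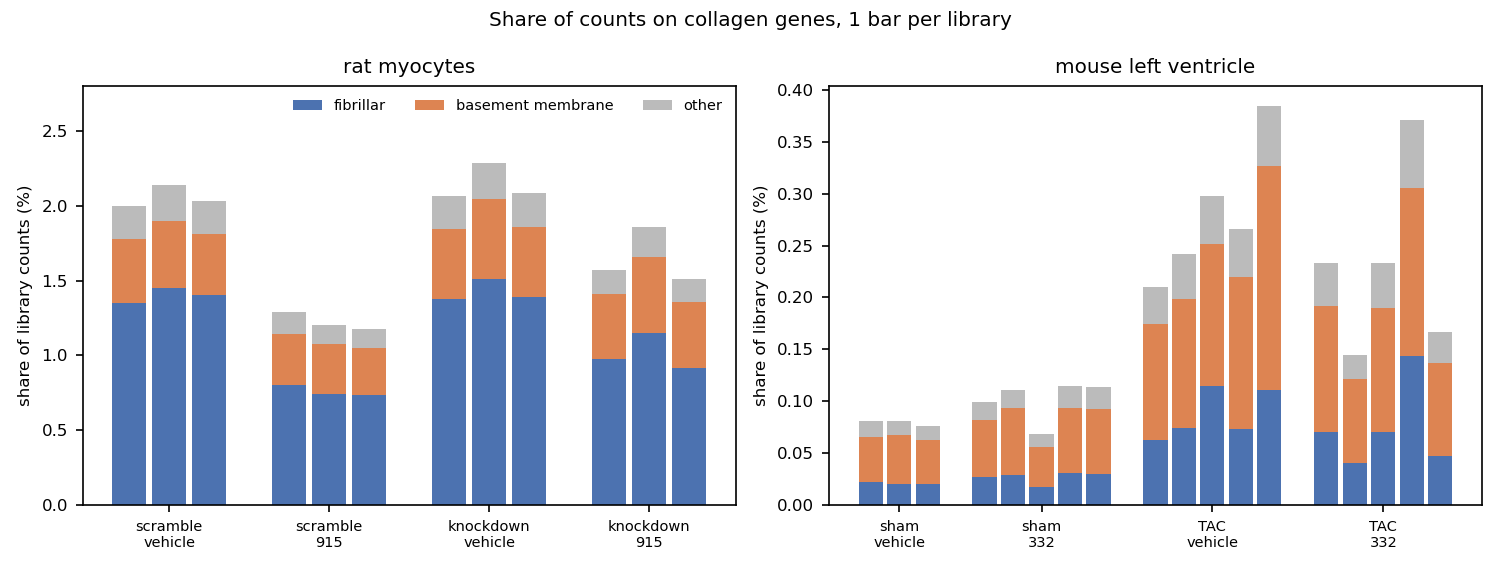
Share of each library's counts (percent, vertical axis from 0, different scales) on fibrillar, basement membrane and other collagen genes, 1 stacked bar per library, for rat cells (left) and mouse left ventricle (right). The scramble 915 bars reach 1.18% to 1.29% against 1.995% to 2.14% in scramble vehicle, and all 10 TAC bars stand above all 8 sham bars.

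In cells with scramble siRNA, 915 lowered collagen transcripts of all 3 classes. Of the 38 tested genes 25 fell and 0 rose, where 42.2% of all genes tested were called in either direction, 20.6% lower and 21.5% higher. Counted by class, 8 of 11 fibrillar, 5 of 7 basement membrane and 12 of 20 other collagens fell, and the median log2 change was −0.85, −0.38 and −0.59 respectively, against 0.01 over all genes. At an unadjusted p under 0.05 the count was also 25, and the authors' deposited table gave 24 collagens lower and 0 higher, 23 of them also called here. The shares of all genes at that threshold and in that table were not computed.

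The chains of the major heart fibrils fell together, with the exception of Col1a2. Col1a1 (ENSRNOG00000003897, rn6 chr10:82745801-82762789, + strand) gave 8478, 9506 and 8270 CPM in scramble vehicle cells and 4789, 4514 and 4240 CPM with 915, a log2 change of −0.95 (SE 0.09, adjusted p = 3.95e-07). Col3a1 (ENSRNOG00000003357, rn6 chr9:52023295-52059217, + strand) stood at 2988, 3309 and 2947 CPM with vehicle and 1889, 1585 and 1639 CPM with 915, a change of −0.85 (SE 0.11, adjusted p = 0.000121). Neither gene overlapped between the groups, and all 3 libraries with 915 were low for both. Col5a1 and Col5a2 encode type V collagen, which sits in the core of type I fibrils and limits their width. Col5a1 went from 786, 816 and 752 to 439, 417 and 403 CPM, or −0.90 (SE 0.08), and Col5a2 from 723, 754 and 709 to 371, 307 and 345 CPM, or −1.10 (SE 0.09). Col11a1, a type XI chain that nucleates fibrils, had the largest fall of its class, −1.42 (SE 0.12, adjusted p = 3.54e-06), from 154, 141 and 142 to 60.8, 51.0 and 51.8 CPM. Col24a1 at −1.05 (SE 0.28), Col27a1 at −0.62 (SE 0.08) and Col5a3 at −0.40 (SE 0.09) were the other fibrillar genes called.

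Col1a2, the alpha 2 chain that joins 2 alpha 1 chains in the type I helix, did not pass the test at −0.38 (SE 0.45, adjusted p = 0.555). Its scramble vehicle libraries read 905, 376 and 1735 CPM, a spread that Col1a1, Col3a1, Col5a1 and Col5a2 did not share, and the 915 libraries 669, 813 and 839.9 CPM lay inside it. Per transcript length the ratio of Col1a1 to Col1a2 was 7.20, 19.4 and 3.66 in the 3 scramble vehicle libraries and 3.66 to 6.38 in 10 of the 12 rat libraries, but only 0.455 to 0.754 in the mouse hearts. By contrast the ratio of Col3a1 to Col1a1 stayed between 0.396 and 0.482 in all 12 rat libraries. What moves Col1a2 apart from Col1a1 in the rat table was not tested.

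Of the basement membrane genes, all 5 measured type IV chains fell and the 2 multiplexins did not pass the test. Col4a1 (ENSRNOG00000016281, rn6 chr16:83522162-83632153, + strand) read 2303, 2388 and 2229 CPM with vehicle and 1807, 1677 and 1615 CPM with 915, or −0.44 (SE 0.07, adjusted p = 6.89e-05). Col4a2, its partner chain, is annotated head to head with it in rn6, at a distance of 83.6 kb. Col4a2 went from 1449, 1483 and 1364 to 1189, 1124 and 1083 CPM, or −0.34 (SE 0.07, adjusted p = 0.000290). These 2 chains, which form the common type IV helix, kept a per-length ratio of 1.12 to 1.14 with 915 and 1.19 to 1.23 with vehicle in scramble cells. Among the chains of more restricted networks, Col4a4 fell from 123, 123 and 119 to 68.8, 87.95 and 76.4 CPM (−0.65, SE 0.07), Col4a5 from 270.5, 282 and 253 to 208, 205 and 205 CPM (−0.38, SE 0.05) and Col4a6 from 26.96, 21.7 and 23.4 to 18.1, 20.9 and 16.8 CPM (−0.37, SE 0.11). None of these 5 overlapped between the groups, but the call of Col4a6 was lost without scramble 915 replicate 3 (adjusted p = 0.0616) or scramble vehicle replicate 1 (adjusted p = 0.0744). Col18a1, whose product carries the endostatin fragment, read 317, 299.8 and 293 CPM with vehicle and 289, 336 and 308 CPM with 915, a difference of 0.04 (SE 0.06) that did not pass. Col15a1 lay at 5.58–6.999 and 2.18–6.35 CPM, near the low end of the measured range, and did not pass either (−0.51, SE 0.26).

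The largest falls belonged to other types. The short-chain collagen Col8a1, a network-forming collagen made by vascular cells, dropped from 109, 109 and 103 to 34.8, 28.1 and 30.7 CPM, a log2 change of −1.78 (SE 0.16, adjusted p = 1.61e-05), and Col8a2 from 85.3, 81.7 and 75.5 to 48.5, 39.7 and 44.1 CPM (−0.88, SE 0.11). Col14a1 and Col12a1 encode FACIT collagens that decorate fibril surfaces. Col14a1 fell from 306, 367 and 342 to 167, 132 and 139 CPM (−1.21, SE 0.11) and Col12a1 from 707, 780.2 and 709.7 to 425, 364 and 360.1 CPM (−0.94, SE 0.07). The type VI chains of the beaded filaments near cell surfaces followed, Col6a1 from 400.3, 454 and 427 to 283, 253 and 249 CPM (−0.71, SE 0.11) and Col6a2 from 537, 582 and 564 to 432, 398 and 406 CPM (−0.45, SE 0.06). In all 6 of these genes every 915 library was below every vehicle library, whereas the groups overlapped for Col13a1, which was also called. The share of all called genes without overlap was not computed. Col19a1 at −1.93 (SE 0.61) and Col10a1 at −1.85 (SE 0.38) had the lowest fold changes of all, but at 1.05–1.63 and 2.34–3.20 CPM with vehicle. The call of Col19a1 was lost without scramble 915 replicate 3 (−1.61, adjusted p = 0.0723) or scramble vehicle replicate 3 (−1.71, adjusted p = 0.0585). With scramble siRNA and 915 Col19a1 read 0.170–0.528 CPM. It passed the low-count filter only through vehicle libraries, so whether it was tested at all depended on a high level there. Its calls with 915, here and in knockdown cells, are part of the counts of falls and are no separate support for a fall. Col10a1 overlaps Nt5dc1, read from the opposite strand and expressed at a higher mean level than the 1.84 CPM of Col10a1, and the library kit does not mark strand, so its reads cannot be told from those of that gene.

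**Figure D2:**
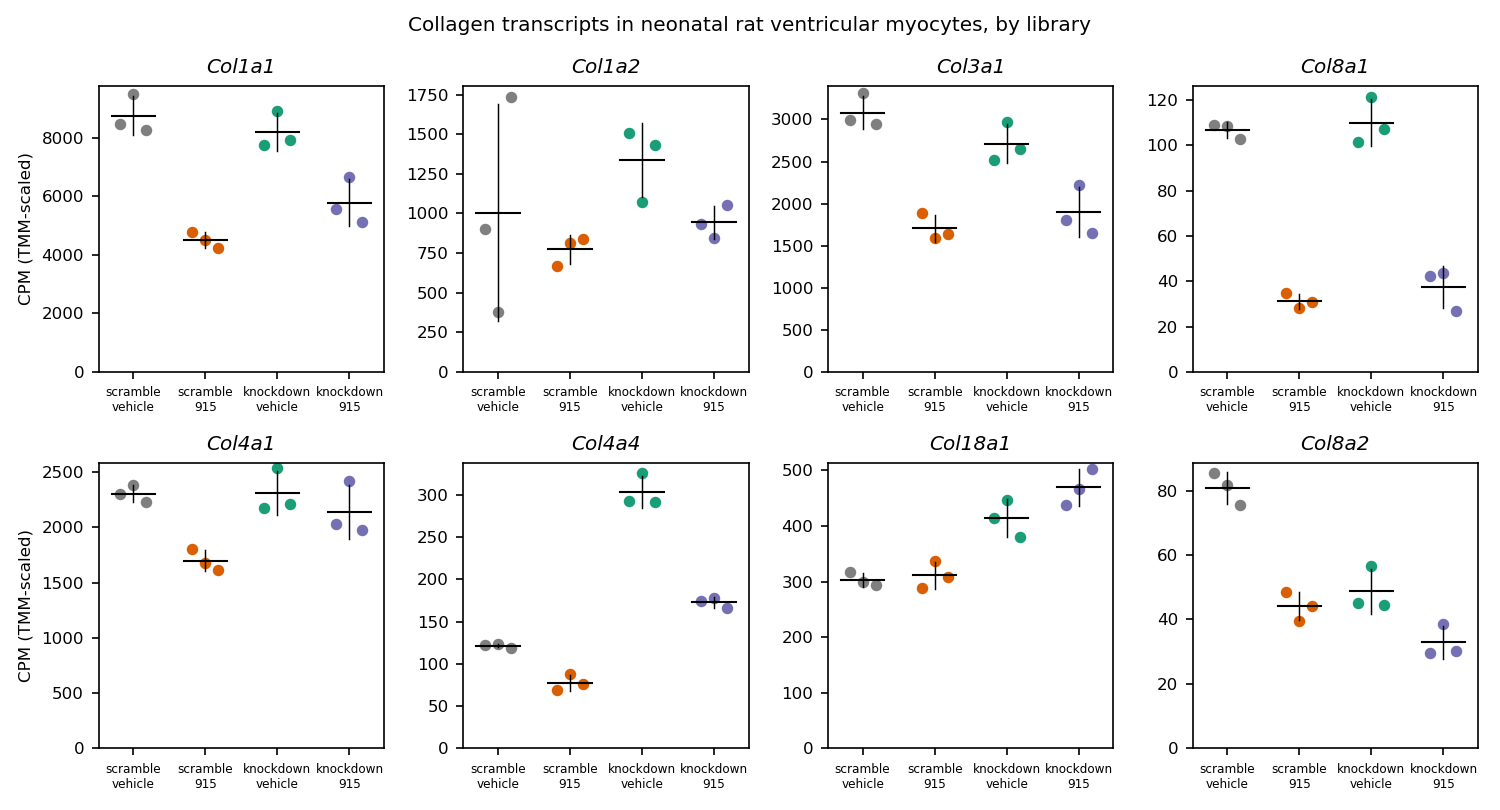
Level in CPM (linear vertical axis from 0, different scales) of 8 collagen genes in each rat library, by group; points are libraries, horizontal lines group means and vertical lines ± 1 SD (n = 3). Col1a1, Col3a1 and Col8a1 are lower in all 915 libraries of both siRNA groups, Col4a4 is highest in knockdown vehicle cells at 292 to 325 CPM, and Col1a2 spreads from 376 to 1735 CPM in scramble vehicle cells.

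In knockdown cells 915 lowered 15 of the 38 tested collagens and raised 2, beside 17.6% lower, 18.1% higher and 35.7% either way among all genes. By class 6 of 11 fibrillar, 2 of 7 basement membrane and 7 of 20 other collagens fell, with class medians of −0.50, −0.11 and −0.29 on the log2 scale. All 15 had also been called lower in scramble cells, in other libraries, and 10 genes were called lower in scramble cells alone. The authors' deposited table gave 15 lower and 2 higher, 16 of them also called here. Col1a1 read 7737, 8921 and 7924 CPM in knockdown vehicle and 5564, 6667 and 5117 CPM in knockdown 915 cells, a change of −0.50 (SE 0.09, adjusted p = 0.000360). Col3a1 went from 2522, 2967 and 2644 to 1810, 2225 and 1656 CPM (−0.52, SE 0.11), Col5a1 from 686, 800.4 and 679.8 to 418, 533 and 437 CPM (−0.64, SE 0.08) and Col5a2 from 605, 686 and 631 to 344, 405 and 318 CPM (−0.85, SE 0.09). In each of these the groups stood apart. Col11a1, from 154, 171 and 141 to 62.6, 78.3 and 56.0 CPM, changed by −1.24 (SE 0.12). Col1a2 read 1508, 1074 and 1435 and 932, 845 and 1052 CPM, apart in every library yet not past the test at −0.50 (SE 0.45, adjusted p = 0.440).

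The basement membrane class split in these cells. Col4a4 fell from 293, 325 and 292 to 175, 178 and 166 CPM, or −0.81 (SE 0.07, adjusted p = 1.9e-09), and Col4a5 from 291, 310.0 and 282 to 219, 227 and 207 CPM, or −0.44 (SE 0.05). The groups overlapped for Col4a1, at 2180, 2542 and 2209 CPM with vehicle and 2029, 2420 and 1976 CPM with 915 (−0.11, SE 0.07, adjusted p = 0.268), and for Col4a2, at 1337, 1553 and 1353 and 1210, 1466 and 1346 CPM (−0.08, SE 0.07, adjusted p = 0.401). Col18a1 was the basement membrane gene called higher, at 0.18 (SE 0.06, adjusted p = 0.0340), from 415, 447 and 381 to 437, 467 and 503 CPM, groups that overlapped, and its call was lost without knockdown 915 replicate 2 or 3 or knockdown vehicle replicate 1 or 3, where the log2 change was 0.19, 0.13, 0.18 and 0.12. Col4a6 at 35.4, 32.1 and 32.1 and 28.0, 24.5 and 32.5 CPM did not pass (−0.23, SE 0.11), nor did Col15a1 at 3.54–4.12 and 2.99–3.89 CPM.

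Among other types Col8a1 again fell furthest of the well-measured genes, from 101, 121 and 107 to 42.3, 43.6 and 26.9 CPM (−1.55, SE 0.16, adjusted p = 5.43e-05). Col14a1 fell from 299.6, 339.9 and 313 to 162, 188 and 149 CPM (−0.93, SE 0.11) and Col12a1 from 623, 649 and 602 to 378, 452 and 379 CPM (−0.63, SE 0.07), with no overlap between the groups. The filament chain Col6a1 passed at −0.39 (SE 0.11), from 392, 477 and 407 to 297, 379 and 297 CPM, but not without knockdown 915 replicate 1 (adjusted p = 0.0715) or replicate 3 (adjusted p = 0.0879). Col6a2 read 539, 613 and 565 and 509.5, 607 and 512 CPM, overlapping, with −0.08 (SE 0.06, adjusted p = 0.377). Col10a1 at −1.58 (SE 0.37) and Col19a1 at −1.66 (SE 0.65) were again the lowest fold changes on very few counts, and Col19a1 lost its call in 11 of the 12 analyses that left out 1 library. One of the 2 Col23a1 identifiers, ENSRNOG00000046785, rose by 1.70 (SE 0.52) at 0.222–0.779 CPM with vehicle and 1.14–1.81 CPM with 915, a call lost without knockdown 915 replicate 1 or knockdown vehicle replicate 2 or 3 (adjusted p 0.0568 to 0.0694), and the other, at −0.33 (SE 0.73), did not pass.

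The difference between the effects of 915 in the 2 siRNA groups was tested directly. In edgeR with the low-count filter 1 gene, Col6a2, passed, where 3.73% of all genes were called and 1.74% were higher: its fall in scramble cells, −0.45 (SE 0.06), and its value in knockdown cells, −0.08 (SE 0.06), differed by 0.37 (SE 0.09, adjusted p = 0.0210). This call was lost in 6 of the 12 analyses that left out 1 library, with an adjusted p of up to 0.0790. The count of collagens called was 4 with DESeq2, 2 without the low-count filter and 2 with a stricter one, all higher, and 0 to 4 when 1 library was left out. Over all genes DESeq2 called 760, edgeR without the filter 726 and with the stricter filter 607, beside 566 in the main fit. Col1a1 missed the threshold at 0.45 (SE 0.13, adjusted p = 0.0639), as did Col4a1 at 0.33 (SE 0.10, adjusted p = 0.0891) and Col12a1 at 0.30 (SE 0.10, adjusted p = 0.133). The median difference was 0.24 over the 38 collagens and 0.01 over all genes, and 30 of the 38 differences, or 78.9%, were above 0 beside 51.99% of all genes. Col8a1 at 0.23 (SE 0.23) and Col11a1 at 0.17 (SE 0.17), the deepest falls among genes over 10 CPM, lay within their SE of the collagen median. Col4a4 at −0.17 (SE 0.09) lay on the other side of 0.

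**Figure D3:**
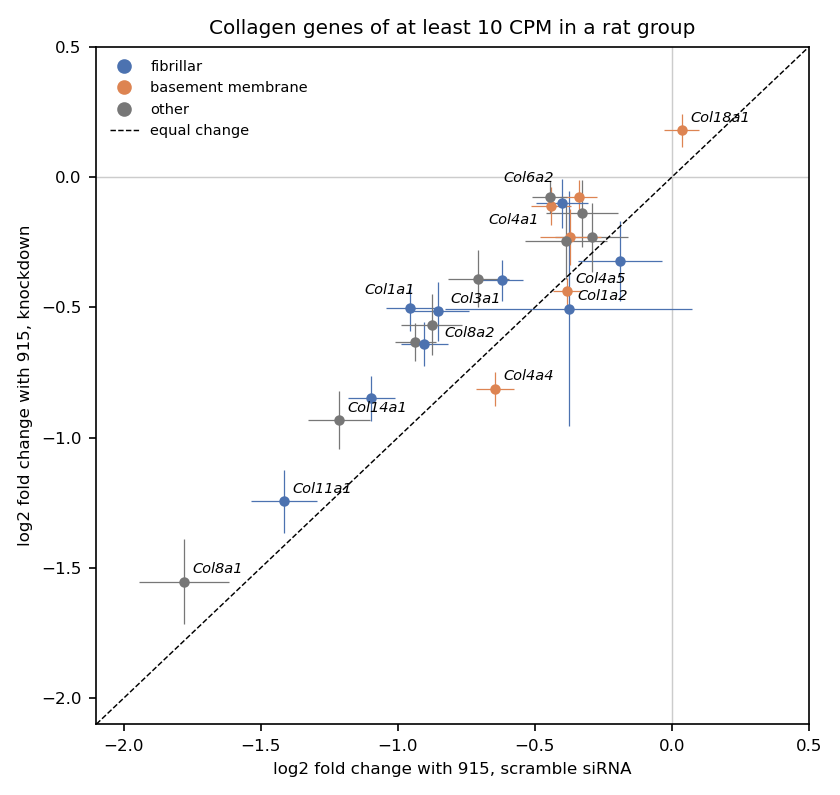
log2 fold change with 915 in scramble cells (horizontal axis) and in knockdown cells (vertical axis) for the 24 collagen genes whose mean reached 10 CPM in a rat group; bars are ± 1 SE, colours the class, the dashed line equal change. Of these, 20 lie above the line, Col8a1 and Col11a1 fall in both, and Col4a4 lies below the line.

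Knockdown of both receptors in vehicle-treated cells raised 4 and lowered 3 of 38 collagens, a share near the background, since 20.4% of all genes were called either way, 7.75% higher and 12.7% lower. The authors' deposited table gave 4 higher and 6 lower, 7 of them also called here. The median log2 change was 0.03 over the collagens and 0.01 over all genes. Of the 4 rises, 3 were in basement membrane genes. Col4a4 (ENSRNOG00000014851, rn6 chr9:88232455-88357182, - strand), a chain of the specialised type IV network, rose from 123, 123 and 119 to 293, 325 and 292 CPM, a log2 change of 1.32 (SE 0.07, adjusted p = 7.72e-13). Col18a1 rose from 317, 299.8 and 293 to 415, 447 and 381 CPM, or 0.45 (SE 0.06, adjusted p = 1.86e-05), and Col4a6 from 26.96, 21.7 and 23.4 to 35.4, 32.1 and 32.1 CPM, or 0.47 (SE 0.11, adjusted p = 0.00229). The groups did not overlap in any of the 3. Col13a1, a transmembrane collagen of cell adhesions, went from 3.35, 1.90 and 2.41 to 4.95, 4.43 and 4.69 CPM (0.87, SE 0.25, adjusted p = 0.0131), a call lost without scramble vehicle replicate 2 (0.70, adjusted p = 0.0785).

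The 3 falls were Col8a2, from 85.3, 81.7 and 75.5 to 45.0, 56.7 and 44.4 CPM (−0.73, SE 0.11, adjusted p = 0.000137), Col27a1, from 65.9, 74.0 and 60.8 to 55.2, 55.6 and 51.7 CPM (−0.30, SE 0.08, adjusted p = 0.00479), and Col12a1, from 707, 780.2 and 709.7 to 623, 649 and 602 CPM (−0.23, SE 0.07, adjusted p = 0.0350). The call of Col12a1 did not hold without knockdown vehicle replicate 1 or 3 or scramble vehicle replicate 2 or 3 (adjusted p 0.0525 to 0.129), nor that of Col27a1 without scramble vehicle replicate 2 (adjusted p = 0.0537). Partner chains of these genes did not pass: Col4a5, the partner of Col4a4 and of Col4a6 in type IV helices, stood at 0.13 (SE 0.05, adjusted p = 0.0670), and Col8a1, the partner of Col8a2, at 0.04 (SE 0.15). The large fibrillar genes did not pass, Col1a1 at −0.09 (SE 0.09), Col3a1 at −0.18 (SE 0.11), Col5a1 at −0.12 (SE 0.08) and Col5a2 at −0.19 (SE 0.09), nor did Col4a1 at 0.00 (SE 0.07) and Col4a2 at −0.02 (SE 0.07).

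Compared among cells given 915, the knockdown cells had 12 collagens higher and 1 lower, beside 16.2% of all genes higher, 17.7% lower and 33.9% either way. Of the 7 basement membrane genes 5 were higher, of the 11 fibrillar genes 2 and of the 20 others 5. Col4a4 (1.15, SE 0.07, adjusted p = 5.46e-12), Col18a1 (0.59, SE 0.06, adjusted p = 2.4e-07), Col4a6 (0.61, SE 0.11) and Col13a1 (1.76, SE 0.26) were called higher as in the vehicle cells, which were other libraries. Col4a1 at 0.33 (SE 0.07), Col4a2 at 0.24 (SE 0.07), Col6a2 at 0.40 (SE 0.06) and Col1a1 at 0.36 (SE 0.09) were also higher, though Col4a2 had an adjusted p of 0.0640 without knockdown 915 replicate 2. Col22a1 was at 0.69 (SE 0.22), a call lost without knockdown 915 replicate 3 or scramble 915 replicate 1. Col8a2 was the gene called lower, at −0.42 (SE 0.12), but not without knockdown 915 replicate 3 (adjusted p = 0.0589). Both knockdown comparisons called 4 genes higher and 1 lower in common.

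Of the genes that process collagen, 915 lowered most in scramble cells. Of 18 genes of modification and folding in the endoplasmic reticulum, 10 fell and 1 rose, with P4ha3 at −1.79 (SE 0.10) and P4ha1 at −1.08 (SE 0.07), both prolyl hydroxylases, Plod2, a lysyl hydroxylase, at −1.52 (SE 0.14) and Serpinh1, which encodes HSP47, at −0.48 (SE 0.07). Of 11 tested genes of propeptide removal and crosslinking, 9 fell and 1 rose: Tll1, a protease of the BMP1 family, at −2.16 (SE 0.14), the lysyl oxidases Lox at −1.74 (SE 0.17) and Loxl2 at −1.08 (SE 0.13), and in the other direction Loxl4 at 0.55 (SE 0.10). Of the 6 receptors 5 fell, among them the integrin chain Itga11 at −1.40 (SE 0.08) and the discoidin receptor Ddr2 at −0.86 (SE 0.07). Of 13 tested other basement membrane genes 9 fell and 1 rose, with the nidogens Nid1 at −1.76 (SE 0.12) and Nid2 at −1.37 (SE 0.13) among those that fell. List medians were −0.19, −0.57, −0.88 and −0.29 against 0.01 over all genes, of which 20.6% fell and 21.5% rose.

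In knockdown cells the same lists gave 6 lower and 5 higher of 18, 6 and 1 of 11, 3 and 0 of 6, and 8 and 1 of 13. Those that rose in the first list included Ppib at 0.37 (SE 0.05), which encodes the proline isomerase cyclophilin B, and P3h4 at 0.46 (SE 0.09), while P4ha3 fell by 1.38 and Plod2 by 1.28 on the log2 scale. With the knockdown alone 3 of 18 rose and 3 fell, 1 and 0 of 11, 0 and 1 of 6, and 2 and 3 of 13. Laminin chains moved apart: Lamb3 at 1.00 (SE 0.07) rose and Lamb2 at −0.50 (SE 0.05) fell. Between the 2 groups given 915 the knockdown had 12 of 18, 2 of 11, 3 of 6 and 6 of 13 genes higher and 0, 0, 1 and 1 lower. Over all genes, 17.6% fell and 18.1% rose with 915 in knockdown cells, and 12.7% fell and 7.75% rose with the knockdown alone. Between the 2 groups given 915, 16.2% of all genes were higher and 17.7% lower. Most counts for the knockdown alone lay near the shares of all genes.

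Markers of other cell types were present in these cultures, and some were called with 915. Over all genes 20.6% fell and 21.5% rose with 915 in scramble cells, and 17.6% and 18.1% in knockdown cells. With the knockdown 12.7% fell and 7.75% rose in vehicle cells, and 17.7% and 16.2% in cells given 915. The summed level of 10 fibroblast markers was 1574 to 1819 CPM in scramble vehicle and 1000 to 1152 CPM in scramble 915 cells, where 7 fell and 1 (Dcn) rose, and 1595 to 1824 CPM in knockdown vehicle and 1212 to 1700 CPM in knockdown 915 cells. The 8 smooth muscle and pericyte markers summed to 3569 to 3799 CPM with vehicle and 1395 to 1706 CPM with 915 in scramble cells (6 fell, 1 rose), and to 3374 to 3787 and 1667 to 2009 CPM in knockdown cells. The cardiomyocyte markers, which identify the labelled cell type, summed to 11320.4 to 12498 CPM in scramble vehicle, 11969 to 12851 CPM in scramble 915, 7458 to 7796 CPM in knockdown vehicle and 5502 to 6942 CPM in knockdown 915 cells. Of these 8, 5 fell with the knockdown in vehicle cells, Tnni3, Myh6 and Myh7 among them, and 1 rose. In cells given 915 all 8 were lower with the knockdown. There 6 of 10 fibroblast and 5 of 8 smooth muscle and pericyte markers were higher and 0 of either list lower. Of the endothelial markers 3 of 6 tested and of the epicardial markers 1 of 4 were higher there, and 0 lower. With 915, 2 cardiomyocyte markers rose and 2 fell in scramble cells, and 1 rose and 3 fell in knockdown cells. Epicardial markers summed to 41.6 to 48.0 CPM in scramble vehicle and 20.2 to 29.1 CPM in scramble 915 cells (3 of 4 fell), and to 39.4 to 50.0 and 28.4 to 34.2 CPM in knockdown cells (1 of 4 fell). Endothelial markers summed to 33.2 to 35.2 and 36.7 to 40.6 CPM in scramble cells (1 of 6 rose with 915), and to 43.0 to 45.7 and 56.3 to 59.3 CPM in knockdown cells (4 rose, 1 fell). Leukocyte markers, with Cd3e at 0 throughout, summed to 26.4 to 31.9 CPM in scramble vehicle and 50.1 to 52.2 CPM in knockdown vehicle cells (3 of 4 rose with the knockdown), and to 37.1 to 38.4 and 64.0 to 80.5 CPM with 915 (3 of 4 higher). Schwann cell markers summed to 6.97 to 12.2 CPM over the 12 libraries, and 1 of 2 rose with 915 in scramble cells. Of the 8 fibroblast markers called with 915 in scramble cells Ddr2 is also a collagen receptor in the list above. The part of these cells in the collagen changes was not tested.

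After 6 weeks of TAC, collagen transcripts of all 3 classes stood higher in the left ventricle. In vehicle-treated hearts 21 of the 32 tested collagens rose and 1 fell, beside 13.5% of all genes higher, 12.8% lower and 26.4% either way. Of the classes, 6 of 8 fibrillar, 7 of 8 basement membrane and 8 of 16 other collagens rose, with median log2 changes of 1.45, 1.21 and 1.17 against −0.01 over all genes. In hearts treated with 332, compared with sham hearts on 332, 22 rose and 1 fell, beside 11.8% higher, 12.1% lower and 23.8% either way, or 5 of 8, 7 of 8 and 10 of 16 by class. These 2 comparisons rest on different hearts, and 20 genes were called higher and 1 lower in both. The first sequencing set alone gave 22 higher and 1 lower in vehicle hearts and 18 higher in 332 hearts, while the second set, with 2 hearts a group, gave 0 calls in 332 hearts and has no sham vehicle heart. In the first set alone Col12a1, Col3a1, Col5a1 and Col6a6 missed the threshold in 332 hearts (adjusted p 0.0542 to 0.0667).

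Among fibrillar genes Col3a1 and Col5a2 had the highest log2 changes in vehicle hearts, and Col5a2 and Col1a1 in 332 hearts. Col3a1 read 79.4, 79.4 and 69.7 CPM in sham vehicle and 262, 307, 557, 263 and 403 CPM in TAC vehicle hearts, or 2.15 (SE 0.40, adjusted p = 0.00170). With 332 it read 104, 119, 67.8, 118 and 107 CPM in sham and 273, 156, 240.5, 520.1 and 178 CPM in TAC hearts, or 1.39 (SE 0.32, adjusted p = 0.00639). Every TAC heart was above every sham heart, and TAC vehicle replicate 3 and TAC 332 replicate 4 were the highest. For Col1a1 the 4 groups read 33.1, 28.8 and 30.0 CPM (sham vehicle), 105, 112, 173, 111 and 152 CPM (TAC vehicle), 41.0, 40.9, 25.8, 41.9 and 41.8 CPM (sham 332) and 108, 63.2, 106, 203 and 71.5 CPM (TAC 332). Its changes with TAC were 1.99 (SE 0.35, adjusted p = 0.00116) and 1.51 (SE 0.28, adjusted p = 0.00172), again without overlap. For Col1a2 they were 1.45 (SE 0.32) and 1.36 (SE 0.26), from 52.6–65.6 to 125–232 CPM and from 46.8–67.8 to 99.2–276 CPM. The per-length ratio of Col1a1 to Col1a2 was 0.455 to 0.493 in sham vehicle and 0.608 to 0.754 in TAC vehicle hearts, which did not overlap, and 0.498 to 0.594 and 0.572 to 0.663 in the 332 groups, which did.

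Type V chains moved like the major fibrils, with 1 exception. Col5a1 read 29.4, 27.2 and 23.2 CPM in sham vehicle and 58.8, 62.9, 82.7, 60.3 and 80.996 CPM in TAC vehicle hearts (1.33, SE 0.26), and Col5a2 read 16.3, 16.1 and 16.4 and 55.5, 71.1, 101, 50.0 and 100.3 CPM (2.12, SE 0.45). In 332 hearts Col5a1 went from 24.6–35.4 to 38.7–89.7 CPM (0.89, SE 0.21) and Col5a2 from 16.1–21.9 to 32.8–134 CPM (1.69, SE 0.36), in both cases without overlap. Col5a3, a minor type V chain, rose by 1.45 (SE 0.29) in vehicle hearts but read −0.32 (SE 0.23, adjusted p = 0.347) in 332 hearts. Col27a1 and Col11a2 did not pass in either comparison, with log2 changes of 0.17 and 0.00 in vehicle hearts. Col11a1, called in the rat cells, stood at 0.252 CPM or less in every mouse heart and was below the filter.

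All basement membrane collagens except Col4a6 rose in both comparisons. Col4a1 read 194, 216 and 182 CPM in sham vehicle and 515, 544, 668, 575 and 851 CPM in TAC vehicle hearts, or 1.61 (SE 0.21, adjusted p = 0.000115), and 262, 299.6, 175, 261 and 252 and 513, 372, 491, 595 and 360.2 CPM in the 332 groups, or 0.90 (SE 0.17, adjusted p = 0.00162). Its divergent neighbour Col4a2 read 170.1, 197 and 164 and 418, 441, 515, 529.5 and 791 CPM (1.46, SE 0.20), and 226, 268, 175, 262 and 253 and 445, 308, 395, 546 and 341 CPM with 332 (0.78, SE 0.16). Sham and TAC did not overlap for either chain, and their per-length ratio lay between 0.973 and 1.26 in all 18 hearts. Col4a3 and Col4a4, chains of the specialised network, went from 2.43–3.63 to 7.31–14.1 CPM (1.78, SE 0.33) and from 6.60–9.08 to 14.4–19.1 CPM (0.95, SE 0.20) in vehicle hearts. With 332 the changes were 1.43 (SE 0.28) and 0.79 (SE 0.16). Col4a5, the X-linked chain of the same network, had the smallest rises called, 0.48 (SE 0.12) and 0.51 (SE 0.10), from 33.3–34.8 to 34.9–51.8 CPM and from 26.9–31.1 to 31.9–48.4 CPM. Col4a6, at 0.695–0.861 CPM in sham vehicle hearts, did not pass (0.68, SE 0.36, adjusted p = 0.178).

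The multiplexins Col15a1 and Col18a1, basement membrane collagens that carry heparan or chondroitin sulphate chains, rose as well. Col15a1 read 48.5, 44.2 and 42.0 CPM in sham vehicle, 118, 151, 134, 137 and 176 CPM in TAC vehicle, 61.9, 61.0, 43.6, 62.1 and 61.6 CPM in sham 332 and 144, 81.3, 125, 172 and 94.9 CPM in TAC 332 hearts. Its changes with TAC were 1.59 (SE 0.22, adjusted p = 0.000165) and 1.09 (SE 0.17, adjusted p = 0.000580). Col18a1 went from 6.51–8.14 to 12.003–17.1 CPM (0.84, SE 0.17) and from 5.203–9.73 to 10.2–19.9 CPM (0.79, SE 0.14). Every TAC heart exceeded every sham heart for both genes.

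Other types held the largest changes in either direction. Col8a1 read 14.6, 9.90 and 14.5 CPM in sham vehicle and 69.7, 111, 127, 71.7 and 112 CPM in TAC vehicle hearts, or 2.88 (SE 0.45, adjusted p = 0.000517), and 18.9, 12.9, 10.8, 14.2 and 14.2 and 96.4, 43.9, 94.7, 153 and 46.7 CPM with 332, or 2.61 (SE 0.36, adjusted p = 0.000249). Its partner Col8a2 rose in 332 hearts (3.49, SE 0.92; 2.70, adjusted p = 0.0536 without TAC 332 replicate 4) and did not pass in vehicle hearts (2.94, SE 1.07, adjusted p = 0.0572), at 0.0869–0.444 CPM in sham vehicle hearts. Col12a1 read 0.313, 0.695 and 0.962 CPM in sham vehicle and 2.58, 10.6, 8.42, 3.13 and 14.2 CPM in TAC vehicle hearts, or 3.40 (SE 1.04, adjusted p = 0.0285), a call lost without any 1 of the sham vehicle hearts and without TAC vehicle replicate 2 or 3 (adjusted p 0.0565 to 0.0986). In 332 hearts it changed by 2.89 (SE 0.79), not past the threshold without TAC 332 replicate 4 (2.13, adjusted p = 0.0530), the heart at 18.6 CPM. Col9a2, a cartilage FACIT chain, was close to 0 without TAC: 1 count in the 3 sham vehicle and 123 counts in the 5 TAC vehicle hearts, a ratio of 67.9 after scaling to library totals with an exact interval of 11.95 to 2702 at 95% confidence (counting error only). With 332 the counts were 5 and 130, a ratio of 25.9 (10.8 to 81.2), and the gene reached at most 4.30 CPM. In sham hearts Col9a2 reached at most 0.218 CPM and Col8a2 at most 0.444 CPM. Both passed the low-count filter only through TAC hearts, as did Col22a1, which was called in 332 hearts. Whether these genes were tested at all depended on a high level there. Their calls are part of the counts of rises above and are no separate support for a rise.

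Col14a1 rose from 8.58–9.08 to 15.9–26.5 CPM in vehicle hearts (1.24, SE 0.31) and from 6.46–9.76 to 12.8–35.6 CPM in 332 hearts (1.33, SE 0.26). The 3 chains of the classical type VI filament all rose: Col6a1 by 1.10 (SE 0.19) from 47.2–49.2 to 97.3–129 CPM, Col6a2 by 1.24 (SE 0.18) from 41.8–48.4 to 99.3–137 CPM, and Col6a3 by 1.46 (SE 0.17) from 15.1–22.1 to 42.4–53.1 CPM. With 332 they changed by 0.66 (SE 0.15), 0.74 (SE 0.14) and 0.74 (SE 0.14), and the sham and TAC hearts overlapped for Col6a1 and Col6a2. Col6a6, another type VI chain, went the other way. It read 9.70, 6.43 and 7.62 CPM in sham vehicle, 4.28, 1.36, 1.46, 2.61 and 0.819 CPM in TAC vehicle, 6.36, 7.15, 7.50, 8.13 and 6.17 CPM in sham 332 and 2.14, 3.73, 1.08, 0.635 and 2.96 CPM in TAC 332 hearts, or −1.82 (SE 0.46, adjusted p = 0.00915) and −1.72 (SE 0.40, adjusted p = 0.00620). All TAC hearts were below all sham hearts, though the adjusted p in vehicle hearts was 0.0524 with only these groups fitted. Col16a1 also rose in both comparisons, at 1.52 (SE 0.44) and 1.45 (SE 0.35), and Col22a1 in 332 hearts (1.11, SE 0.40, groups overlapping), whereas Col7a1, Col13a1, Col20a1, Col23a1 and Col28a1 passed in neither.

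**Figure D4:**
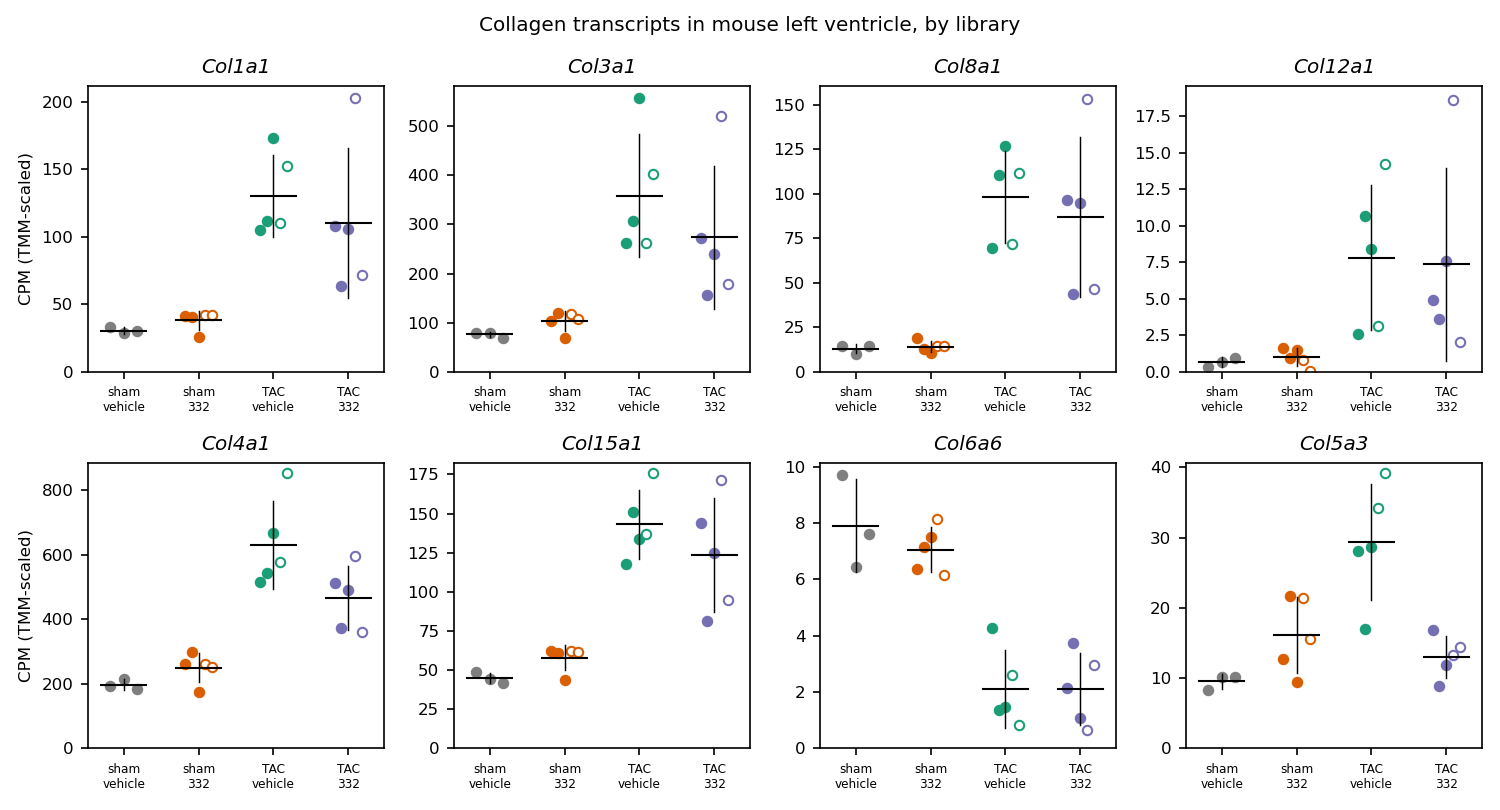
Level in CPM (linear vertical axis from 0, different scales) of 8 collagen genes in each mouse left ventricle, by group; points are hearts, filled for the first and open for the second sequencing set, horizontal lines group means and vertical lines ± 1 SD (n = 3 or 5). Sham and TAC separate for Col1a1, Col3a1, Col8a1, Col4a1, Col15a1 and, downwards, Col6a6, while Col5a3 in TAC 332 hearts (8.86 to 16.8 CPM) lies below TAC vehicle hearts (17.04 to 39.1 CPM).

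Some genes that process collagen rose with it. In TAC vehicle hearts 8 of 17 tested genes of modification and folding rose and 2 fell, among them Serpinh1 at 1.03 (SE 0.11), P4ha1 at 1.45 (SE 0.20) and P3h2, a prolyl 3-hydroxylase, at 1.45 (SE 0.24) higher and Fkbp10 at −0.60 (SE 0.12) lower. Of 11 genes of propeptide removal and crosslinking 5 rose and 0 fell, with Loxl2 at 1.97 (SE 0.33), Loxl1 at 1.60 (SE 0.28) and Adamts2, which trims procollagen I, at 1.45 (SE 0.26). Itga11 at 1.06 (SE 0.30) was the 1 receptor of 6 called. Of 13 other basement membrane genes 7 rose and 1 fell, with Nid1 at 0.54 (SE 0.09) among the former and Lamb3 at −1.21 (SE 0.19) the latter. In 332 hearts the counts were 8 and 2 of 17, 8 and 1 of 11, 1 and 0 of 6, and 5 and 2 of 13, the receptor being Ddr1 at 0.64 (SE 0.12). Over all genes 13.5% rose and 12.8% fell with TAC in vehicle hearts, and 11.8% and 12.1% in 332 hearts.

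Some markers of other cells of the ventricle were called as well, beside 13.5% of all genes higher and 12.8% lower in vehicle hearts. In 332 hearts these shares were 11.8% and 12.1%. The 10 fibroblast markers summed to 507 to 583 CPM in sham vehicle, 840 to 1334 CPM in TAC vehicle, 508 to 559 CPM in sham 332 and 647 to 1723 CPM in TAC 332 hearts, with 5 of 10 higher in vehicle hearts. Of these, Postn at 3.79 (SE 0.70) and Mfap5 at 2.41 (SE 0.47) rose most, and Pdgfra at 0.44 (SE 0.10) and Dcn at 0.56 (SE 0.14) less. Smooth muscle and pericyte markers gave 0 higher and 1 lower of 8, near the shares of all genes. Endothelial markers gave 2 and 0 of 8 and leukocyte markers 2 and 0 of 5 tested, in short lists. Endothelial markers summed to 660 to 720 CPM in sham vehicle and 704 to 775 CPM in TAC vehicle hearts, and leukocyte markers to 93.2 to 125 and 126 to 177 CPM. Cardiomyocyte markers fell in 5 of 8 and rose in 2 (Myh7 and Actn2), with sums of 48366 to 50981 CPM in sham vehicle and 37479.9 to 51260.2 CPM in TAC vehicle hearts. Epicardial markers gave 0 of 4 in vehicle hearts and 3 lower of 4 in 332 hearts (7.26 to 16.4 CPM summed in sham 332, 3.69 to 6.07 CPM in TAC 332), and Schwann cell markers 1 and 2 lower of 2 tested. The part of these cells in the collagen changes was not tested.

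**Figure D5:**
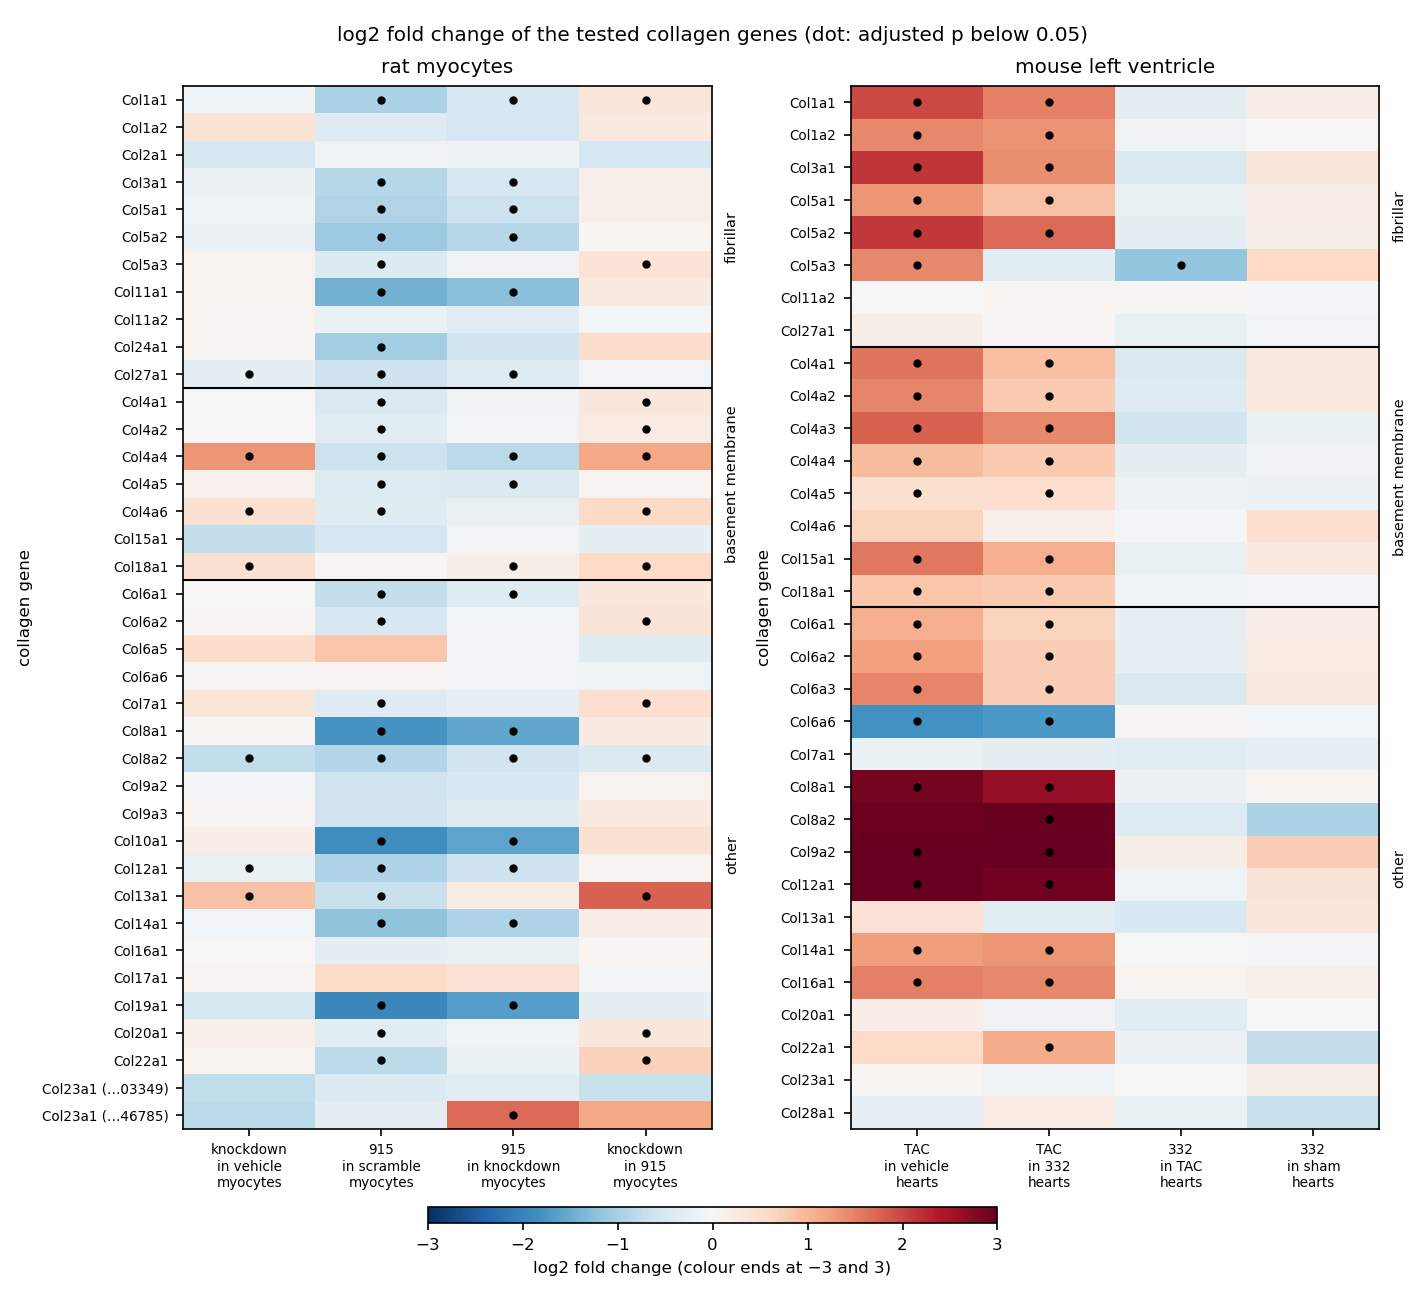
log2 fold change (colour, ends at −3 and 3) of the 38 tested rat and 32 tested mouse collagen genes, rows by class, columns by comparison; dots mark an adjusted p under 0.05. The 915 columns hold 25 and 15 called falls, the TAC columns 21 and 22 called rises and 1 fall each, and the 332 columns 1 call, Col5a3.

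Among hearts with TAC, 332 changed 1 collagen. Col5a3 read 28.0, 17.04, 28.6, 34.2 and 39.1 CPM in TAC vehicle and 16.8, 8.86, 11.8, 13.3 and 14.4 CPM in TAC 332 hearts, a log2 change of −1.16 (SE 0.22, adjusted p = 0.0367), where 0.427% of all genes were called and 0.292% lower. The lowest TAC vehicle heart was above the highest TAC 332 heart by a narrow margin. Sham hearts read 8.30, 10.2 and 10.1 CPM with vehicle and 12.7, 21.7, 9.44, 21.4 and 15.5 CPM with 332 (0.61, SE 0.29, adjusted p = 0.997), and the difference between the 332 effects in TAC and sham hearts was −1.77 (SE 0.37, adjusted p = 0.101). The call rested on the fit. Its adjusted p was 0.448 in the first sequencing set alone (log2 change −0.99) and 0.0529 in the second (−1.41), 0.0538 without the set term and 0.0551 with only these groups fitted. It was lost without any 1 of the sham vehicle hearts, TAC 332 replicates 2, 3, 4 and 5 and TAC vehicle replicates 1, 3, 4 and 5 (adjusted p 0.0505 to 0.108), while the log2 change stayed between −0.99 and −1.41.

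The other 31 collagens did not pass in this fit. Without the low-count filter edgeR called 10 collagens, all lower, while its calls over all genes went from 60 to 671. With the filter the 31 log2 changes ran from −0.55 to 0.17, and the median over all 32 was −0.23 beside 0.01 over all genes, with 26 below 0. At an unadjusted p under 0.05 the count was 5, all lower, Col5a3 among them, and DESeq2 called 1. Over all genes DESeq2 called 183, and the share of all genes at an unadjusted p under 0.05 was not computed. Col4a1 read −0.43 (SE 0.17, adjusted p = 0.289), Col4a2 −0.39 (SE 0.16), Col4a3 −0.55 (SE 0.23) and Col6a3 −0.43 (SE 0.13, adjusted p = 0.158), basement membrane and filament chains whose TAC 332 hearts overlapped the TAC vehicle hearts. Col3a1 at −0.42 (SE 0.31, adjusted p = 0.613) and Col1a1 at −0.27 (SE 0.26, adjusted p = 0.737) overlapped too, TAC 332 replicate 4 being the highest or next highest of the 10 TAC hearts for these fibrillar genes and replicate 2 the lowest. With SEs of 0.31 and 0.26 on the log2 scale, changes of the size seen here could not be detected for them.

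In sham hearts edgeR called 0 of 32 collagens with 332, where 0.00712% of all genes were called. At an unadjusted p under 0.05 the count was 0, and DESeq2 called 0. Without the low-count filter edgeR called 2, both higher, beside 191 over all genes. The fitted changes ran from −0.95 to 0.73 with a median of 0.16, the extremes being Col8a2 and Col9a2 at levels under 0.5 CPM. For Col1a1 the change was 0.21 (SE 0.35), for Col3a1 0.34 (SE 0.38) and for Col4a1 0.28 (SE 0.20). The difference between the effects in TAC and sham hearts passed for 0 collagens in edgeR, where 0.0641% of all genes were called (0.0214% higher and 0.0427% lower). It passed for 5 at an unadjusted p under 0.05, for 1 in DESeq2 and for 11, all lower, in edgeR without the low-count filter. Over all genes DESeq2 called 87 and edgeR without the filter 521, and the share at an unadjusted p under 0.05 was not computed. Pathway and marker lists had 0 calls in these 3 comparisons. The compounds 915 and 332 were given to different species and systems, so that their values stand side by side without a comparison.

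Members below the low-count filter carried few counts throughout. In the rat table these were Col25a1, Col26a1, Col28a1, Col6a4 and Col9a1, with highest values of 0.629, 0.325, 0.712, 0.0649 and 0.623 CPM. In mouse they were Col2a1, Col6a4, Col9a1, Col10a1, Col11a1, Col17a1, Col19a1 and Col24a1, none above 0.306 CPM in any heart and Col9a1 at 0 in all 18, and Col6a5, Col9a3, Col25a1 and Col26a1, which reached 0.659, 0.518, 0.704 and 0.943 CPM. A count of 0 in 18 hearts is a limit of detection at 11375894 to 16599899 counts per library.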

How the data were processed

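RNA was sequenced from 12 rat myocyte and 18 mouse left ventricle libraries. For rat the submitters' processing notes name HISAT2 2.0.5, featureCounts 1.5.0-p3, DESeq2 1.20.0 and rn6, without the role of each, and the rat table holds the authors' deposited read counts per gene. The 12 FPKM columns beside them were not used. The mouse tables hold the authors' deposited estimated counts per transcript (the notes name Salmon, with the version not given in the sources used here), here summed over 140790 transcripts to genes and rounded. Before rounding, 7.43% of the sums per gene and library were not whole (tolerance 1e-06). The mouse build is not given in the sources used here. The authors' deposited rat comparison table gives log2 fold changes and p-values.

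Genes with low counts were removed (filterByExpr, minimum count 10), leaving 15181 rat and 14047 mouse genes. Counts were TMM-normalized and tested in R 4.3.3 with the quasi-likelihood test of edgeR 4.0.16, 1 fit per species over all groups, with Benjamini-Hochberg adjustment over all genes tested. Fits were tested on simulated data. Standard errors were derived from the same fits. Alternatives were DESeq2 1.42.0, other normalization and filters, only the groups compared, a replicate block, no set term, each sequencing set alone, and leaving out each library. Genes were named by a fixed rule: the major fibrillar chains, the type IV and multiplexin chains, Col6a1 to Col6a3, Col8a1, Col12a1, Col14a1, and the 4 largest called rises and falls of each comparison. Genes outside it were named after their values were seen. The members and lists were chosen with earlier results of these data known, and the adipocyte list after seeing the data. Replicate numbers did not pair the samples.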

Additional observations from a re-analysis of the deposited data

Results flagged for a closer look

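In groups of 4 to 10 hearts, 72 in all over the collagen genes, a heart was marked when it stood apart from its group by more than Dixon's critical value, which chance passes in about 1 in 20 groups. Replicate 3 of sham 332 was the lowest of its group for 4 genes, with Col1a1 at 25.8 CPM, Col1a2 at 46.8 CPM, Col3a1 at 67.8 CPM and Col15a1 at 43.6 CPM. Replicate 4 of TAC 332 was the highest of its group for Col18a1, at 19.9 CPM, and replicate 2 of TAC vehicle for Col4a4, at 19.1 CPM. The effect of 915 on Col6a2 differed between knockdown and scramble cells by 0.37 on the log2 scale in the direct test of that difference.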

How the results depend on the processing

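Over 202 gene results and 4537 alternative values, 4387 kept their side of the threshold, and 92 lost and 58 gained the call. A change of sign was counted only where the main or the alternative value was called, and 0 such changes occurred. Changes of sign between 2 values that were not called were not counted. The difference of the 915 effects, 1 collagen called, gave 2 without the filter, 2 with the stricter filter, 4 with DESeq2, 3 with the replicate block and 0 to 4 when 1 library was left out. TAC in 332 hearts, 23 called, gave 0 in the second sequencing set alone. For 332 in TAC hearts, 1 called, the count was 10 without the filter, 0 with the replicate block, with only the groups compared, without the set term and in either set alone, and 0 to 2 when 1 library was left out. For 332 in sham hearts, 0 called, it was 2 without the filter. For the difference of the 332 effects, 0 called, it was 11 without the filter, 1 with DESeq2 and 0 to 1 when 1 library was left out (1 without sham 332 replicate 3 or TAC vehicle replicate 2). Without the filter all-gene calls in these 3 comparisons rose from 60, 1 and 9 to 671, 191 and 521. The cause of these moves was not tested.

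Same-numbered libraries did not deviate together (correlations of −0.053 to 0.040 in rat and −0.273 to 0.076 in mouse). With the replicate block the counts were 7, 22, 16, 13 and 3 in the rat and 22, 22, 0, 0 and 0 in the mouse comparisons, in the order used above for the knockdown in vehicle, 915 in scramble, 915 in knockdown, knockdown in 915 and the difference, then TAC in vehicle, TAC in 332, 332 in TAC, 332 in sham and the difference. Genes near 1 CPM, such as Col19a1, and the 3 sham vehicle hearts limit what depth and number can show.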
